A study of Mus musculus with 24 samples.

Results

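The genes described here are 50 mouse genes of DNA replication, cell cycle control and mitosis, chosen by symbol from a list and found in a table of read counts for 49671 genes. The 50 comprise 20 replication genes, 21 mitosis genes and 9 others, namely G1/S and S phase cyclins, the kinase Cdk2 and cell cycle transcription factors. All 50 were present, and all passed the filter on low counts that left 19691 genes for testing. The rule that names them uses no expression value, but the members were chosen with earlier results of these data known.

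Astrocytes from several sources were profiled by RNA-seq in 24 libraries, 4 in each of 6 groups. The neural stem cells (NSC) came from a murine ESC (embryonic stem cell) source, GSC-5003 of MTI-GlobalStem, with a C57Bl/6 N background, and were grown at passage 50 to 60 with the growth factors EGF and FGF, each at 20 ng/ml. AGES, astrocytes generated from embryonic stem cells, were those NSC after 3 to 5 days with 20 ng/ml BMP4 in place of the growth factors. Primary astrocytes of C57BL/6J mice were sorted from brain with magnetic beads against ACSA-2, a glial surface antigen. The age of the mice was 4 to 8 days in the neonatal groups (neoAC) and 100 to 140 days in the adult groups (AdAC). Sorted cells were either snap-frozen at once (neoAC direct and AdAC direct) or grown for 7 to 10 days in the same medium at both ages (neoAC CellC and AdAC CellC). NSC and AGES all come from 1 stem cell line, and the brains of 2 mice were pooled for neonatal and for direct adult isolations. Removal of debris is described for adult preparations only. NSC and AGES were grown in another medium than the primary cultures. Cell source, substrain, medium and time in culture cannot be told apart from group where NSC or AGES are compared with primary cells. Nor can age be told apart from the preparation.

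Library totals ran from 27904126 to 37997368 counts, and no pair of replicates matched within sampling noise. All 7 astrocyte markers (Aqp4, Gja1, Aldh1l1, Slc1a2, Slc1a3, Aldoc and Sox9) were detected in every group, with a summed level of 18460 to 20870 CPM (read counts scaled to a common library total) in neoAC direct, 13700 to 14160 in AdAC direct, 5380 to 5987 in AGES and 3815 to 4391 in neoAC CellC. In AdAC CellC this sum was only 730.4 to 1066 CPM, below the 1916 to 2440 CPM of NSC. The 4 oligodendrocyte markers (Mbp, Mog, Mag and Mobp) summed to 8698 to 9455 CPM in AdAC direct and 2508 to 6462 CPM in AdAC CellC, against at most 81.92 CPM in any library of the other groups. The 4 fibroblast markers (Dcn, Lum, Col1a1 and Col1a2) summed to 995.4 to 1425 CPM in AdAC CellC and to at most 476.8 CPM elsewhere. The 4 ependymal markers (Foxj1, Tmem212, Ccdc153 and Dynlrb2) summed to 1323 to 1679 CPM in neoAC CellC, 934.6 to 1064 CPM in AdAC direct and at most 281.5 CPM elsewhere. Mural cell markers summed to 854.8 to 1016 CPM in AdAC CellC, 302.0 to 662.7 CPM in neoAC CellC and 225.9 to 467.7 CPM in neoAC direct. Markers of other cells were thus present in all 4 primary groups, at both ages, and their part in the results below was not tested.

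A cell that is about to divide first licenses its replication origins. The origin recognition complex, Cdc6 and Cdt1 load the ring of Mcm2 to Mcm7 onto DNA, Cdc45 and the GINS complex turn that ring into an active helicase, and polymerases copy the strands around the sliding clamp Pcna. E2F transcription factors drive these genes at the start of S phase, while a later wave that depends on Mybl2 and Foxm1 drives the genes of mitosis, and the DREAM repressor complex holds both waves down in resting cells. Neural stem cells cycle continuously, astrocytes of the newborn brain still divide, and those of the healthy adult brain rarely do.

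The promoters are shown because both waves are read from short sequence elements near the start of transcription. RefSeq windows of 300 bases on GRCm38.p6 (250 bases before the start and 50 after it) were matched to 39 of the 50 genes. They were searched on both strands for the E2F elements TTTCCCGC and TTTGGCGC, for the cell cycle homology region (CHR) TTTGAA, and for CCAAT. Among the 16 replication promoters, 7 (43.8%) held an E2F element, and among the 17 mitosis promoters 0 did, against 2.09% of 17492 windows of protein-coding genes and 1.63% of all 27025 windows. The CHR was in 13 of 17 mitosis promoters (76.5%) and in 2 of 16 replication promoters (12.5%), against 16.5% of protein-coding and 18.1% of all windows. CCAAT was in 16 of 17 mitosis promoters and 13 of 16 replication promoters, against 39.0% of protein-coding and 37.9% of all windows. More than 1 CCAAT together with a CHR occurred in 9 of 17 mitosis promoters (52.9%) and in 2.24% of protein-coding windows. Only 1 of the matches in these windows overlapped another. In the windows of Mybl2, E2f1, Ccne1, Birc5 and Tyms none of these letters occurred.

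For the helicase subunits Mcm5 (chr8:75109259-75109558, plus strand) and Mcm6 (chr1:128359656-128359955, minus strand), and for the mitotic regulators Cdk1 (chr10:69352863-69353162, minus strand) and Ccnb2 (chr9:70421505-70421804, minus strand), capitals mark every match to these elements in the direction of transcription.
Mcm5: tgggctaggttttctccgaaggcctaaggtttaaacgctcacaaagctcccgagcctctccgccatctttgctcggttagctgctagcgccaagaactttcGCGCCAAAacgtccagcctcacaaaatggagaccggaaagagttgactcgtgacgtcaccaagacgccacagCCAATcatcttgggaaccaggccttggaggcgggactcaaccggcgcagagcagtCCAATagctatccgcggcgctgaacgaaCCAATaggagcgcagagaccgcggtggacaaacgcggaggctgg
Mcm6: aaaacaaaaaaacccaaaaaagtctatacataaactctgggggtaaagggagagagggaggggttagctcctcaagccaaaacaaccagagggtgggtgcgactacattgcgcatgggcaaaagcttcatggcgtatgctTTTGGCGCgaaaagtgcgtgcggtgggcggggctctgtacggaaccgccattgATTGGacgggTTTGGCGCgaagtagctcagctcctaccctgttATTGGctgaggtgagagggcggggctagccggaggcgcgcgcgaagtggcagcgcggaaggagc
Cdk1: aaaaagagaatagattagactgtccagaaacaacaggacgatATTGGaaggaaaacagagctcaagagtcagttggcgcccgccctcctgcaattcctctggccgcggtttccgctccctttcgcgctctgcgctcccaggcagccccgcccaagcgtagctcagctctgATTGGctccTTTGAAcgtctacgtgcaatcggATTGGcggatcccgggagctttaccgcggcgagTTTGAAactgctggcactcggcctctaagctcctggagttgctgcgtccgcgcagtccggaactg
Ccnb2: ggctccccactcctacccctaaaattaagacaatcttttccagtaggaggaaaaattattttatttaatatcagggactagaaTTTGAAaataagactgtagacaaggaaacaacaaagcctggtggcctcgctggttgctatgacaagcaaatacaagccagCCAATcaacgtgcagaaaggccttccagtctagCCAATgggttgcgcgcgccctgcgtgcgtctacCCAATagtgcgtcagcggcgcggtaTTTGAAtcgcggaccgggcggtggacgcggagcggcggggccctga
Mcm5 and Mcm6 show the E2F letters with CCAAT, and Cdk1 and Ccnb2 show CCAAT upstream of a CHR. A match describes these windows and does not show that a factor binds there.

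Levels were summarised per library as the mean log2 CPM over a list, relative to the mean of the 4 NSC libraries. The replication score of replicates 1 to 4 was -4.54, -4.56, -4.54 and -4.49 in AGES, -4.48, -4.48, -4.38 and -4.42 in AdAC direct, -2.56, -2.89, -2.39 and -2.78 in neoAC direct, -1.74, -2.41, -2.31 and -2.03 in neoAC CellC and -1.37, -1.51, -1.49 and -1.29 in AdAC CellC. The mitosis score was -7.84, -7.79, -7.79 and -7.65 in AGES, -6.65, -6.74, -6.58 and -6.55 in AdAC direct, -2.54, -3.14, -2.48 and -2.83 in neoAC direct, -1.25, -1.77, -1.71 and -1.45 in neoAC CellC and -1.49, -1.60, -1.55 and -1.30 in AdAC CellC. NSC were thus highest on both lists in every library, the cultured primary groups and neoAC direct lay in between, and AGES and AdAC direct were lowest. AGES and AdAC direct lay close together on replication (-4.53 ± 0.03 and -4.44 ± 0.05, mean ± SD, n = 4), with every AGES library the lower. On replication they lay further apart when each library took the median log2 CPM over the list, as given at the end. That median can fall on different genes in different groups. The median of the log2 fold changes per gene, AGES against AdAC direct, was 0.08 for replication. AGES were also lower on mitosis (-7.77 ± 0.08 against -6.63 ± 0.09), again with no overlap between their libraries. In these bulk libraries a smaller share of cycling cells and less of each RNA per cycling cell cannot be told apart.

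**Figure D1:**
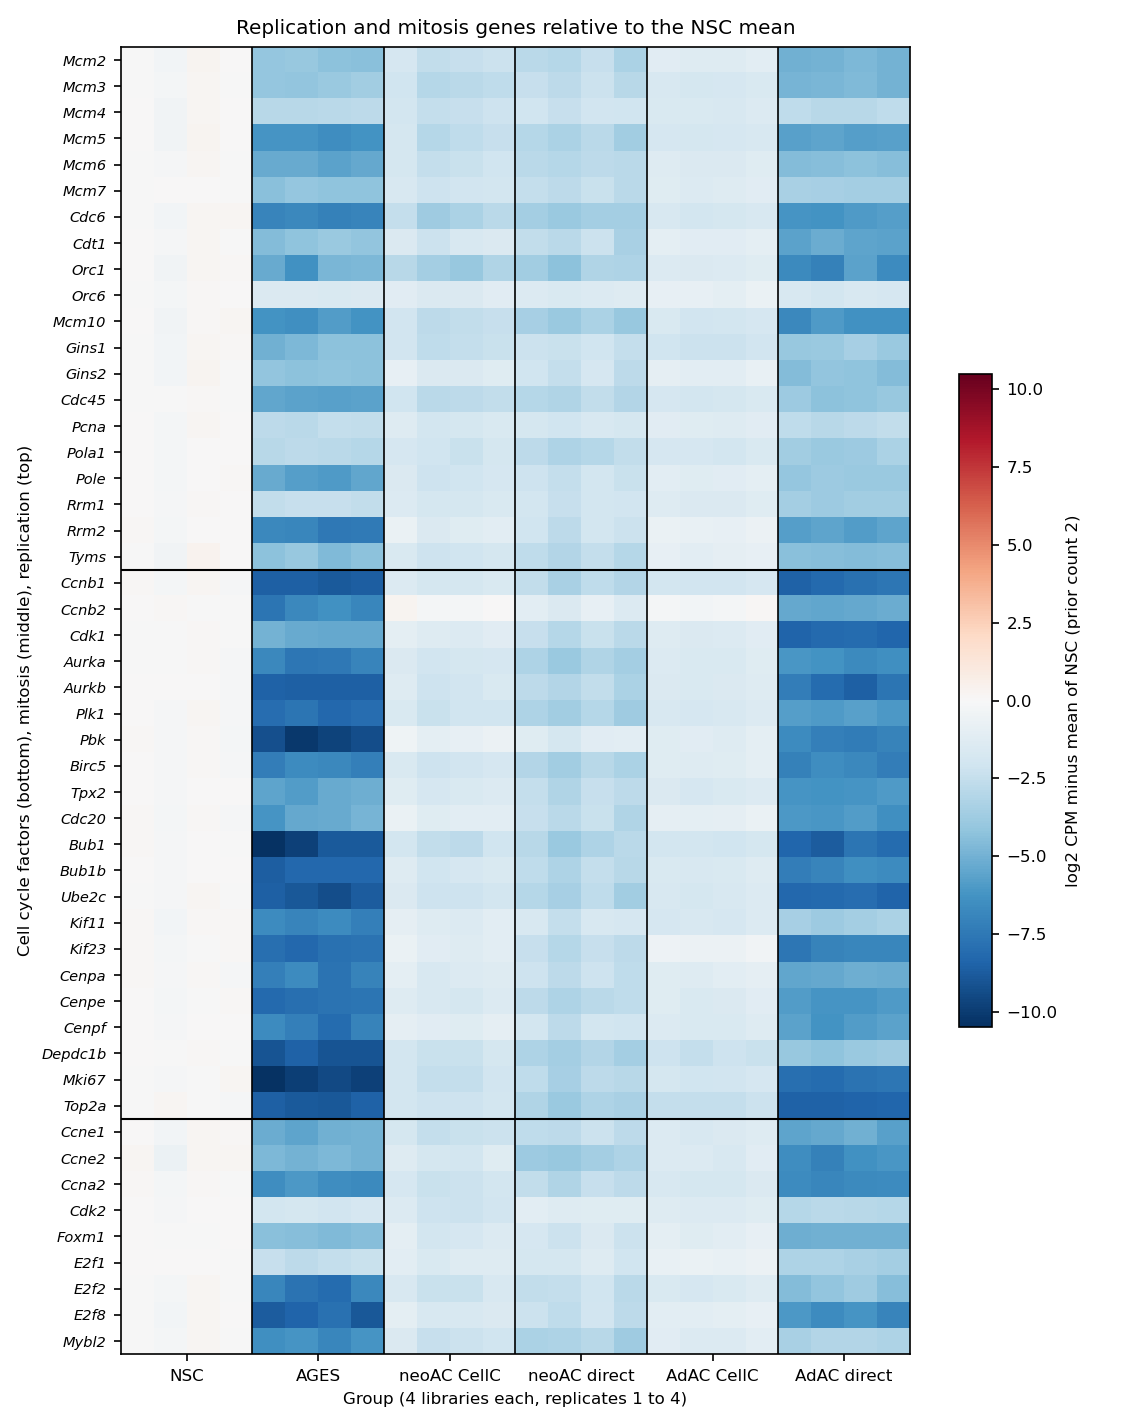
Heatmap of the 50 genes (rows; replication, mitosis and cell cycle factors from top to bottom) in the 24 libraries (columns, 4 per group), as log2 CPM with a prior count of 2 minus the mean of the 4 NSC libraries, on a colour scale that is white at 0. AGES and AdAC direct are darkest blue, deepest in the mitosis rows, and Orc6 stays pale in all groups.

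The difference between both scores tells whether the lists moved by the same amount. Replication minus mitosis was -0.05, -0.12, 0.10 and 0.08 in the NSC libraries, 0.12, 0.09, 0.06 and 0.01 in AdAC CellC and -0.03, 0.25, 0.09 and 0.05 in neoAC direct. The NSC libraries average 0 because they are the reference. With means over the lists, both lists stood at nearly the same distance from NSC in AdAC CellC and neoAC direct. With the median log2 CPM over each list in place of the mean, the difference was 0.55 in neoAC direct and 0.14 in AdAC CellC. These medians can fall on different genes in different groups. Per gene, the median log2 fold changes of NSC against neoAC direct were 2.68 for replication and 2.88 for mitosis. In AGES the difference was 3.31, 3.23, 3.25 and 3.16, and in AdAC direct 2.17, 2.27, 2.199 and 2.14. In every library of both groups the mitosis genes were further below NSC than the replication genes. The neoAC CellC libraries lay on the other side, at -0.48, -0.64, -0.60 and -0.58, with replication genes lower than mitosis genes in each library, and at -0.29 over the group with medians. The differences have no test because the lists were chosen with results of these data known.

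**Figure D2:**
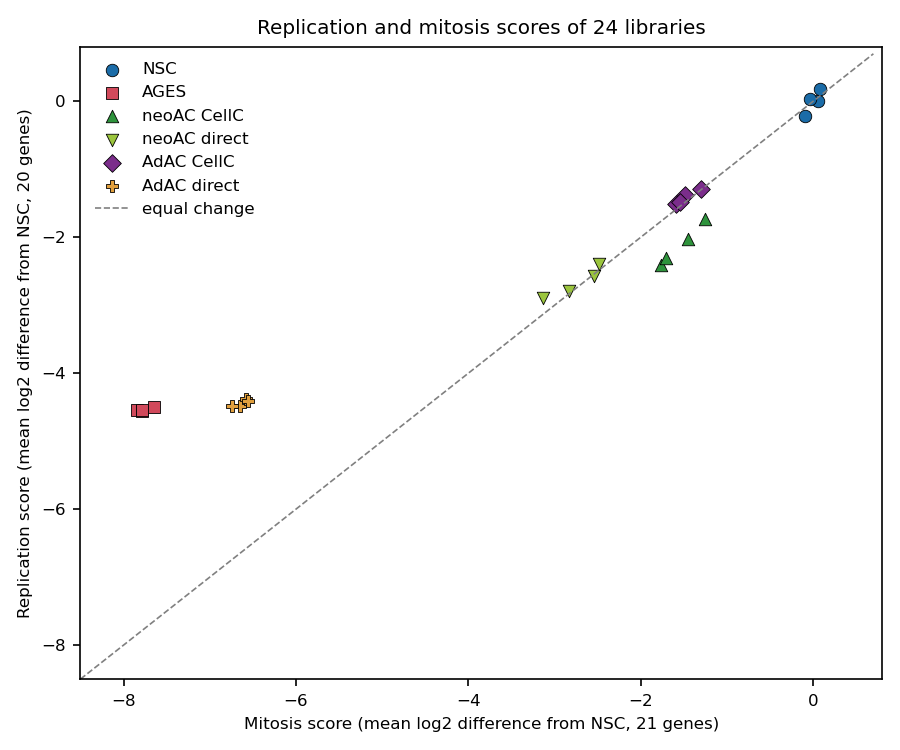
Replication score (vertical axis, 20 genes) against mitosis score (horizontal axis, 21 genes) of the 24 libraries, both as the mean log2 difference from NSC, with a dashed line where both are equal. NSC, AdAC CellC and neoAC direct lie on or near the line, the 4 neoAC CellC libraries lie under it, and AGES and AdAC direct lie far above it.

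Mcm2 and Mcm5 are subunits of the replicative helicase that is loaded before S phase. In replicates 1 to 4, Mcm2 stood at 286, 235, 344 and 295 CPM in NSC, 16.7, 17.7, 14.5 and 13.7 in AGES, 84.2, 48.2, 53.02 and 58.8 in neoAC CellC, 39.6, 36.2, 52.7 and 28.1 in neoAC direct, 124, 115, 115 and 131 in AdAC CellC, and 8.55, 9.02, 11.1 and 9.05 in AdAC direct. Mcm5 stood at 294, 229, 355 and 306 CPM in NSC, 3.94, 4.03, 3.11 and 3.65 in AGES, 79.2, 36.97, 45.3 and 53.2 in neoAC CellC, 36.3, 29.05, 42.1 and 23.8 in neoAC direct, 86.3, 80.6, 87.2 and 93.4 in AdAC CellC, and 5.64, 6.21, 5.20 and 5.50 in AdAC direct. Both were highest in NSC and lowest in the 8 libraries of AGES and AdAC direct, with AdAC CellC above neoAC CellC in every library for both genes. In AGES, Mcm2 was higher than in AdAC direct and Mcm5 was lower (log2 fold changes 0.73 ± 0.17 and -0.61 ± 0.22, ± SE, edgeR's quasi-likelihood test, adjusted p = 5.68e-04 and 0.0128).

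The 6 subunits form a ring of 1 copy each, so their levels were compared per kilobase of exon. The highest subunit stood 2.04 ± 0.108 times above the lowest in NSC (mean ± SD over 4 libraries), 1.68 ± 0.0309 times in AdAC CellC, 2.17 ± 0.196 times in neoAC CellC and 3.31 ± 0.935 times in neoAC direct. In AGES this spread was 12.03 ± 1.80 times, and in AdAC direct 8.97 ± 1.09 times. The spread of every AGES and AdAC direct library, 8.05 or more, lay above that of every other library, 4.64 or less. In AGES the subunits ran from 0.922 (Mcm5) to 10.96 CPM per kilobase (Mcm4), and in AdAC direct from 1.36 (Mcm2) to 11.5 (Mcm4). Mcm4 was therefore the highest subunit in both groups of low replication score, at 13.8% ± 0.762 of its NSC level in AGES and 14.4% ± 1.45 in AdAC direct (SD, n = 4), while Mcm5 kept 1.24% ± 0.141 and 1.91% ± 0.143. Mcm4 was also the highest subunit in every neoAC direct library and in NSC replicate 1. Which subunit was lowest in AdAC direct depended on the division by length. In CPM, Mcm5 (5.20 to 6.21) lay below Mcm2 (8.55 to 11.1) in AdAC direct.

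**Figure D3:**
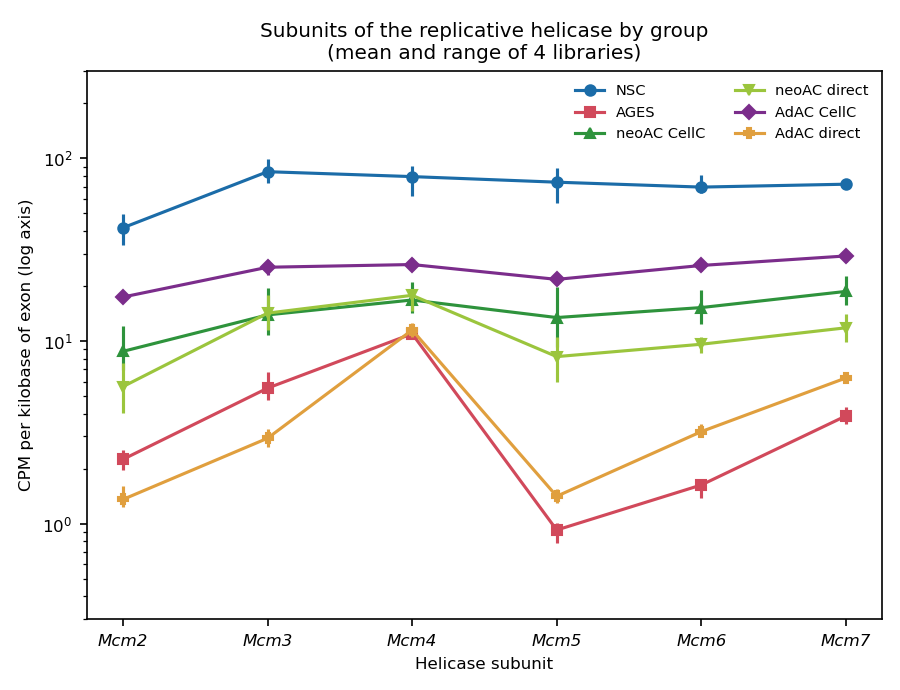
Level of the helicase subunits Mcm2 to Mcm7 (horizontal axis) in CPM per kilobase of exon (logarithmic vertical axis), with a point for the mean and a bar for the range of the 4 libraries of each group. Within NSC and both cultures the subunits stay close together, while the lines of AGES and AdAC direct peak at Mcm4 and are lowest at Mcm5 and Mcm2.

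Cdc6 and Cdt1 load the helicase ring together. Cdc6 stood at 67.9, 55.6, 77.8 and 77.9 CPM in NSC, 0.507, 0.580, 0.449 and 0.494 in AGES, 11.9, 5.06, 6.76 and 9.67 in neoAC CellC, 5.88, 4.54, 5.74 and 5.69 in neoAC direct, 20.97, 17.8, 18.9 and 21.1 in AdAC CellC, and 0.887, 0.834, 1.04 and 1.21 in AdAC direct. Cdt1 stood at 74.3, 65.1, 80.97 and 69.6 CPM in NSC, 3.08, 3.74, 4.71 and 3.98 in AGES, 24.8, 15.01, 21.9 and 25.2 in neoAC CellC, 11.7, 10.3, 14.7 and 6.62 in neoAC direct, 35.03, 31.2, 32.01 and 35.7 in AdAC CellC, and 1.42, 1.92, 1.52 and 1.41 in AdAC direct. In AGES Cdc6 was at 0.727% ± 0.0781 of NSC and Cdt1 at 5.35% ± 0.928. The ratio of Cdt1 to Cdc6 in CPM was 1.05 ± 0.117 in NSC, 1.63 ± 0.481 in AdAC direct and 7.77 ± 2.01 in AGES. Of the origin recognition subunits, Orc1 ranged from 0.0618 to 0.297 CPM in AdAC direct and 0.145 to 0.592 in AGES up to 5.92 to 6.95 in AdAC CellC and 13.4 to 19.7 in NSC. Its libraries of AGES and AdAC direct overlapped, and 376 of its exon bases lie opposite Gm12743. Of the 50 genes Orc6 varied least between group means, from 16.5 to 19.7 CPM in AdAC direct to 55.2 to 69.7 in NSC, and 171 bases of its exons overlap Vps35 on the opposite strand.

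Pcna is the sliding clamp of the polymerases, and 10.1% of its 100-base exon words also occur in the copy Pcna-ps2. Pcna stood at 348, 291, 385 and 346 CPM in NSC, 49.4, 47.8, 58.5 and 55.8 in AGES, 132, 89.4, 94.8 and 113 in neoAC CellC, 95.3, 78.3, 107 and 95.6 in neoAC direct, 151, 140.1, 135 and 153 in AdAC CellC, and 52.8, 46.2, 49.6 and 57.2 in AdAC direct. It kept 15.4% ± 1.49 of its NSC level in AGES and 15.03% ± 1.38 in AdAC direct, and the libraries of both groups overlapped. Other genes of origin firing and the fork differed widely in AGES. The polymerase subunit Pola1 kept 13.5% ± 1.01 of NSC there, against 1.99% ± 0.412 for Pole, the catalytic subunit of the leading-strand polymerase, 2.01% ± 0.136 for the helicase cofactor Cdc45, 1.29% ± 0.234 for Mcm10, and 4.01% ± 0.974 for the GINS subunit Gins1. Gins2 lay at 5.22% ± 0.325, but 2758 bases of its exons overlap Gse1 on the opposite strand. The counting options listed in the study's methods include none for strand, so reads of both genes may be mixed.

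Ribonucleotide reductase makes DNA precursors from a large subunit, Rrm1, and a small one, Rrm2. Rrm2 stood at 316, 265, 309 and 301 CPM in NSC, 2.73, 2.55, 1.57 and 1.71 in AGES, 181, 106, 123 and 139.8 in neoAC CellC, 68.2, 44.6, 78.5 and 60.9 in neoAC direct, 179, 173, 164 and 194 in AdAC CellC, and 5.36, 6.18, 4.96 and 6.26 in AdAC direct. Rrm2 lay at 59.7% ± 4.29 of NSC in AdAC CellC and 46.2% ± 10.9 in neoAC CellC, and at 0.719% ± 0.197 in AGES. Rrm1 kept 17.6% ± 0.925 of NSC in AGES, with 77.5, 84.5, 84.9 and 77.2 CPM in the 4 libraries, above 37.6, 32.2, 35.6 and 36.4 CPM in AdAC direct. The ratio of Rrm1 to Rrm2 in CPM was 1.55 ± 0.0575 in NSC, 0.972 ± 0.0279 in AdAC CellC, 1.07 ± 0.129 in neoAC CellC, 1.75 ± 0.188 in neoAC direct, 6.31 ± 0.947 in AdAC direct and 40.2 ± 11.6 in AGES. Every AGES library was above every AdAC direct library in this ratio, and both groups were above all others. Tyms, which makes thymidylate, kept 4.90% ± 0.898 in AGES and 4.31% ± 0.144 in AdAC direct.

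Cyclin E1 (Ccne1) drives entry into S phase and cyclin A2 (Ccna2) its progress. Ccne1 stood at 58.9, 46.4, 64.4 and 61.2 CPM in NSC, 1.48, 1.19, 1.63 and 1.78 in AGES, 15.5, 10.04, 11.1 and 12.2 in neoAC CellC, 9.17, 8.50, 11.9 and 8.55 in neoAC direct, 21.3, 17.8, 20.1 and 22.2 in AdAC CellC, and 1.21, 1.33, 1.63 and 1.02 in AdAC direct. Ccna2 stood at 361, 289, 355 and 332 CPM in NSC, 3.63, 5.10, 3.56 and 3.19 in AGES, 98.5, 67.4, 70.7 and 86.4 in neoAC CellC, 55.7, 37.2, 62.1 and 49.997 in neoAC direct, 104, 93.2, 92.3 and 116 in AdAC CellC, and 3.37, 2.87, 3.12 and 3.36 in AdAC direct. For both genes the libraries of AGES and AdAC direct overlapped and those of all other groups were higher. Ccne2 was lower in AdAC direct (0.216 to 0.480 CPM) than in AGES (1.13 to 1.40 CPM), although 609 bases of its exons overlap Ints8. Of the exon bases of Ccna2, 510 lie opposite Exosc9. Cdk2, the kinase partner of these cyclins, was kept in AGES at 26.5, 29.03, 25.6 and 29.9 CPM, 26.8% ± 1.94 of NSC, and was the second most retained of the 50 genes there after Orc6. Of these 4 genes it alone was higher in neoAC direct (47.04, 41.4, 44.03 and 42.3 CPM) than in neoAC CellC (38.1, 23.1, 21.5 and 25.7 CPM).

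E2f1 activates the genes of S phase entry, and E2f8, itself an E2F target, represses them later. E2f1 stood at 60.7, 61.1, 59.9 and 57.6 CPM in NSC, 11.3, 9.08, 10.2 and 11.8 in AGES, 27.1, 19.9, 23.1 and 23.3 in neoAC CellC, 17.00, 16.5, 23.95 and 14.3 in neoAC direct, 35.2, 37.9, 34.5 and 38.6 in AdAC CellC, and 6.28, 6.36, 5.71 and 4.91 in AdAC direct. E2f8 stood at 58.9, 49.6, 69.1 and 61.1 CPM in NSC, 0.0780, 0.116, 0.192 and 0.0658 in AGES, 28.4, 18.3, 18.9 and 21.01 in neoAC CellC, 12.6, 9.25, 14.9 and 9.01 in neoAC direct, 27.04, 27.1, 29.4 and 33.4 in AdAC CellC, and 0.852, 0.556, 0.773 and 0.423 in AdAC direct. E2f1 kept 17.7% ± 1.99 of its NSC level in AGES while E2f8 fell to 0.189% ± 0.0955, and E2f1 was higher in every AGES library than in any AdAC direct library while E2f8 was lower. E2f8 shares 610 exon bases with the opposite-strand Gm2788. The activator E2f2 was likewise lower in AGES, at 0.0320 to 0.165 CPM against 1.03 to 1.87 CPM in AdAC direct.

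Mybl2 and Foxm1 carry the switch from S phase to mitosis. Foxm1 stood at 178, 163, 169 and 181 CPM in NSC, 7.998, 7.77, 6.73 and 7.80 in AGES, 84.4, 46.1, 51.2 and 65.4 in neoAC CellC, 49.9, 35.7, 58.6 and 35.4 in neoAC direct, 86.3, 72.1, 80.6 and 94.8 in AdAC CellC, and 4.97, 5.16, 5.26 and 5.25 in AdAC direct. Mybl2 stood at 82.9, 74.6, 99.6 and 83.4 CPM in NSC, 0.897, 1.10, 0.673 and 1.09 in AGES, 29.1, 15.4, 17.7 and 19.5 in neoAC CellC, 8.29, 8.75, 11.3 and 6.49 in neoAC direct, 36.2, 30.6, 30.9 and 38.3 in AdAC CellC, and 8.05, 9.95, 10.2 and 8.66 in AdAC direct. The AdAC direct libraries of Mybl2 overlapped those of neoAC direct, whereas those of Foxm1 did not, and Mybl2 lay at 10.8% ± 1.19 of NSC in AdAC direct against 2.99% ± 0.0780 for Foxm1. The ratio of Foxm1 to Mybl2 in CPM was 0.565 ± 0.0540 in AdAC direct and 8.29 ± 1.42 in AGES, against 2.05 ± 0.236 in NSC. Every AdAC direct library was below every library of the other groups in this ratio. Copies of Mybl2 sequence in AC151978.1 and Gm3320 cover 15.3% of its 100-base words, so its level is uncertain to that extent.

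Cdk1 with cyclin B1 or B2 (Ccnb1 and Ccnb2) starts mitosis. Cdk1 stood at 246, 244, 282 and 244 CPM in NSC, 8.15, 6.29, 6.12 and 6.12 in AGES, 126, 97.3, 93.3 and 112 in neoAC CellC, 47.3, 31.2, 50.7 and 36.4 in neoAC direct, 97.00, 88.99, 92.2 and 113 in AdAC CellC, and 0.674, 0.834, 0.862 and 0.733 in AdAC direct. Ccnb1 stood at 267, 211, 280.4 and 228 CPM in NSC, 0.585, 0.580, 0.481 and 0.560 in AGES, 92.6, 70.1, 69.7 and 81.3 in neoAC CellC, 39.9, 22.5, 38.9 and 28.7 in neoAC direct, 63.7, 62.4, 59.2 and 72.4 in AdAC CellC, and 0.603, 0.772, 1.04 and 1.24 in AdAC direct. Both genes were near 0 in AdAC direct. In AGES Cdk1 stayed at 6.67 ± 0.991 CPM (SD, n = 4), above every AdAC direct library, while Ccnb1 lay at 0.551 ± 0.0484 CPM, below every AdAC direct library. The ratio of Cdk1 to Ccnb1 in CPM was 12.1 ± 1.49 in AGES and lay between 0.904 ± 0.245 in AdAC direct and 1.52 ± 0.0619 in AdAC CellC over the other groups. Ccnb1 shares 14.9% of its 100-base words with Ccnb1-ps and 3 other copies. Ccnb2 was the member nearest to NSC in the cultures, at 55.3, 38.4, 39.8 and 46.9 CPM in neoAC CellC and 39.1, 37.5, 37.96 and 48.5 in AdAC CellC against 46.7, 48.1, 42.6 and 42.97 in NSC.

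Aurora B (Aurkb) and polo-like kinase 1 (Plk1) correct chromosome attachment and build the spindle. Aurkb stood at 139, 137, 138 and 127 CPM in NSC, 0.312, 0.290, 0.288 and 0.296 in AGES, 52.2, 30.3, 34.5 and 43.9 in neoAC CellC, 20.4, 15.6, 22.97 and 13.8 in neoAC direct, 47.7, 44.7, 47.9 and 54.4 in AdAC CellC, and 0.816, 0.433, 0.297 and 0.621 in AdAC direct. Plk1 stood at 259, 229.5, 282 and 226 CPM in NSC, 0.897, 1.13, 0.769 and 0.889 in AGES, 81.4, 48.8, 57.1 and 57.3 in neoAC CellC, 26.5, 19.4, 30.3 and 18.9 in neoAC direct, 79.2, 73.2, 78.8 and 93.8 in AdAC CellC, and 4.44, 3.86, 4.73 and 3.75 in AdAC direct. AGES and AdAC direct were lowest for both, with Plk1 lower in every AGES library than in any AdAC direct library and Aurkb overlapping between both groups. Aurora A (Aurka) and survivin (Birc5, the partner of Aurkb) lay at 0.609 to 1.13 and 0.741 to 1.19 CPM in AGES and at 1.19 to 1.74 and 0.733 to 1.30 CPM in AdAC direct. Pbk, a mitotic kinase, had 1 to 3 counts in each AGES library. Tpx2, which activates Aurora A on the spindle, was higher in AGES (8.86, 6.96, 10.96 and 11.9 CPM) than in AdAC direct (5.68, 5.22, 5.77 and 6.66 CPM) in every library.

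The checkpoint kinases Bub1 and Bub1b hold chromosomes until all are attached, and Cdc20 and Ube2c then work with the anaphase-promoting complex to release them. Bub1 ranged over 0.0390 to 0.230 CPM in AGES, 0.247 to 0.565 CPM in AdAC direct and 121 to 140.4 CPM in NSC. Bub1b and Ube2c ranged over 0.429 to 0.580 and 0.288 to 0.507 CPM in AGES, and over 1.21 to 2.199 and 0.564 to 0.773 CPM in AdAC direct. All 3 were lower in every AGES library than in any AdAC direct library, though 592 exon bases of Ube2c lie opposite Tnnc2. Cdc20 stayed at 2.65, 4.93, 5.22 and 6.68 CPM in AGES and 2.98, 2.84, 3.39 and 2.28 CPM in AdAC direct. The 6 genes of spindle motors, centromere proteins and Depdc1b were each lower in every AGES library than in any AdAC direct library. Of all genes tested, 44.8% were called lower in AGES than in AdAC direct. How many of all genes separate without overlap was not counted. Kif11, the motor that pushes the spindle poles apart, was kept in AdAC direct at 18.5, 15.4, 17.4 and 21.9 CPM, 8.52% ± 1.26 of NSC, but was at 2.11, 1.71, 2.11 and 1.45 CPM in AGES. Depdc1b was likewise at 1.99, 1.70, 2.17 and 2.37 CPM in AdAC direct and had 1 count in the 4 AGES libraries together. Cenpa, Cenpe, Cenpf and Kif23 lay between 0.423 and 1.67 CPM in AGES on average, and between 0.828 and 4.17 CPM in AdAC direct.

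Mki67 (Ki-67) coats mitotic chromosomes and is the usual stain for proliferation, and Top2a untangles DNA before segregation. Mki67 stood at 936, 878, 944 and 1072 CPM in NSC, 0.663, 0.928, 1.31 and 1.02 in AGES, 248, 173, 167 and 232 in neoAC CellC, 149, 87.1, 142 and 127 in neoAC direct, 261, 224, 234 and 288 in AdAC CellC, and 3.80, 3.52, 4.28 and 4.94 in AdAC direct. Top2a stood at 1363, 1599, 1376 and 1294 CPM in NSC, 3.67, 2.99, 2.88 and 3.88 in AGES, 376, 316, 309 and 366 in neoAC CellC, 153, 94.1, 147 and 136 in neoAC direct, 251, 247, 241 and 295 in AdAC CellC, and 3.90, 3.74, 4.13 and 4.43 in AdAC direct. In AGES Mki67 was at 0.102% ± 0.0280 and Top2a at 0.238% ± 0.0351 of the NSC level. Mki67 was lower in AGES than in AdAC direct without overlap, whereas Top2a overlapped between both groups. Every NSC library held more of both than any primary library, the cultures included.

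Culture of adult astrocytes was compared with direct isolation to ask what 7 to 10 days in vitro change. All 50 genes rose in AdAC CellC (edgeR's quasi-likelihood test, Benjamini-Hochberg adjusted over 19691 genes, threshold 0.05), where 38.8% of all genes tested were higher and 39.2% lower. The median log2 fold change was 3.07 over the replication genes, 5.28 over the mitosis genes and 3.97 over the other 9, against 0.00 over all genes. In CPM terms the median mitosis gene was 38.8-fold higher and the median replication gene 8.37-fold. Cdk1 rose most, by a log2 fold change of 6.97 ± 0.18 (adjusted p = 2.71e-20), and Orc1 led the replication genes with 5.41 ± 0.37. The Orc1 value starts from only 0.0618 to 0.297 CPM in AdAC direct, so its size is uncertain. Orc6 (0.89 ± 0.09), Depdc1b (1.68 ± 0.16) and Cdk2 (1.58 ± 0.12) rose least within their lists. Oligodendrocyte markers summed to 2508 to 6462 CPM in AdAC CellC against 8698 to 9455 CPM in AdAC direct, fibroblast markers to 995.4 to 1425 CPM against 75.26 to 92.32 CPM, and mural cell markers to 854.8 to 1016 CPM against 289.5 to 312.9 CPM, and their part in these changes was not tested.

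**Figure D4:**
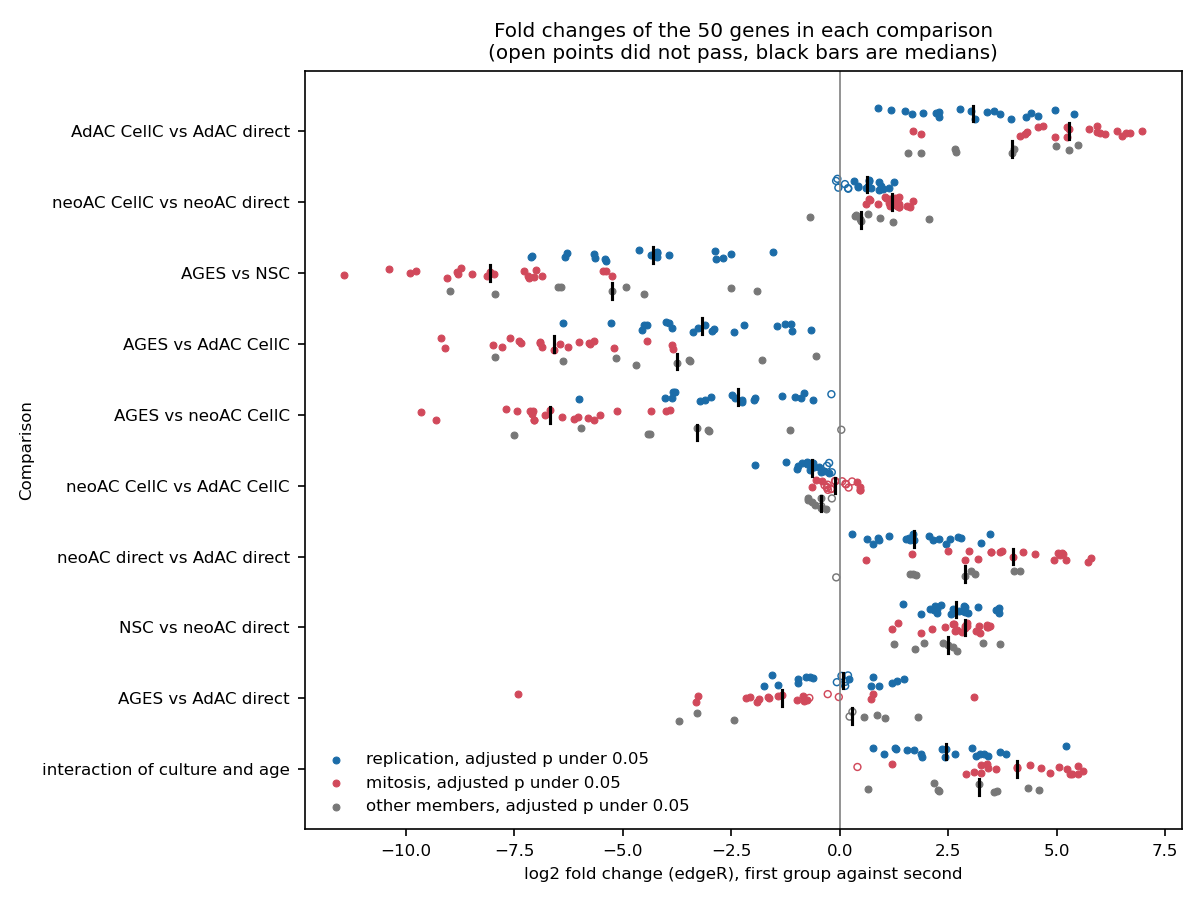
log2 fold changes (horizontal axis, first group against second) of the 50 genes for 9 pairs of groups and for the culture by age interaction, by list, with filled points for an adjusted p under 0.05, open points for genes that did not pass and a black bar at each median. The mitosis points lie farther from 0 than the replication points in most comparisons, and both lie near 0 only for neoAC CellC against AdAC CellC and, in part, for AGES against AdAC direct.

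In neonatal astrocytes the same question was asked of culture. Of the 50 genes, 43 were higher in neoAC CellC than in neoAC direct, 1 was lower and 6 did not pass, while 34.4% of all genes were higher and 31.3% lower. All 21 mitosis genes rose, with a median log2 fold change of 1.20, from 0.61 ± 0.14 for Pbk to 1.69 ± 0.14 for Aurka. Of the 20 replication genes 14 rose, with a median over all 20 of 0.63 against 0.04 for all genes, led by Mcm10 (1.24 ± 0.16). The 6 that did not pass were Mcm3 (-0.03 ± 0.16), Mcm4 (-0.08 ± 0.12), Orc1 (0.20 ± 0.28), Orc6 (0.12 ± 0.09), Gins1 (-0.05 ± 0.15) and Pcna (0.19 ± 0.11). Pcna passed with library size only (0.42, adjusted p = 0.00168), with at least 10 counts in every library (0.30) and without neoAC CellC replicate 2 (0.28). Ccne1, among the 43 (0.35 ± 0.14), lost its call under 8 alternatives, with values of 0.22 without neoAC CellC replicate 1 to 0.36 without neoAC CellC replicate 4. Cdk2 went against the others and fell, with a log2 fold change of -0.69 ± 0.12 (adjusted p = 1.03e-05). Its partner cyclin Ccne2 rose most of all 50 genes (2.05 ± 0.20). From neoAC direct to neoAC CellC the ependymal markers went from 122.3 to 183.6 CPM up to 1323 to 1679 CPM, the 4 neuroblast markers from 10.53 to 13.59 CPM up to 83.43 to 110.3 CPM, and the astrocyte markers from 18460 to 20870 CPM down to 3815 to 4391 CPM, and their part was not tested. Within its group neoAC direct replicate 2 was lowest on both scores, and its endothelial and microglial markers summed to 261.6 and 54.86 CPM, against at most 102.5 and 19.43 CPM in the other 3 libraries. Without neoAC direct replicate 2, 40 genes were higher and 1 lower.

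The difference between the adult and the neonatal effect of culture was tested directly as an interaction. The same 4 primary groups enter the culture and age comparisons, so these results are not independent. On the log2 scale the interaction equals neoAC direct against AdAC direct minus neoAC CellC against AdAC CellC. It was positive, that is, larger in adult cells, for 49 of the 50 genes, against 35.4% of all genes with a positive and 33.2% with a negative difference. Its median on the log2 scale was 4.09 over the mitosis genes and 2.44 over the replication genes, against 0.05 over all genes. Cdk1 had the largest difference (5.59 ± 0.22, adjusted p = 7.60e-17), and the replication genes ran from Orc6 (0.77 ± 0.13) to Orc1 (5.21 ± 0.48). The Orc1 value rests on the same low level in AdAC direct. Depdc1b did not pass (0.41 ± 0.22, adjusted p = 0.101), and Mybl2 was the lowest of those that did (0.65 ± 0.23, adjusted p = 0.0161). Mybl2 lost its call with library size only (0.50, adjusted p = 0.0563) and without neoAC direct replicate 3 (0.51, adjusted p = 0.0549).

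Directly isolated cells of both ages were compared to ask how the ages differ before culture. In neoAC direct 49 of 50 genes were higher than in AdAC direct and 1 did not pass, with 35.0% of all genes higher and 36.4% lower. The median log2 fold change was 3.98 for mitosis and 1.71 for replication, against 0.00 over all genes. Pbk (5.78 ± 0.20) and Cdk1 (5.73 ± 0.18) led the mitosis genes, with Pbk at 28.6 to 48.7 CPM in neonatal and 0.594 to 0.994 CPM in adult cells, and Rrm2 led the replication genes (3.47 ± 0.18). The lowest values in each list were those of Depdc1b (0.61 ± 0.16) and Orc6 (0.29 ± 0.09), both still higher in neonatal cells. The gene that did not pass was Mybl2 (-0.08 ± 0.17, adjusted p = 0.682), and its sign turned (0.04) without neoAC direct replicate 4. Oligodendrocyte markers summed to at most 17.03 CPM in the neonatal libraries, far below the adult ones, and their part was not tested.

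The cultures of both ages were then compared with each other. Between neoAC CellC and AdAC CellC, 4 genes were higher in the neonatal cultures, 27 lower and 19 did not pass, against 28.5% of all genes higher and 35.2% lower. The lists differed: 17 of 20 replication genes were lower and 0 higher, including all 10 genes of origin licensing, with a median log2 fold change of -0.65, while 3 mitosis genes were lower, 4 higher and 14 did not pass, with a median of -0.11 against -0.08 over all genes. Orc1 was lowest (-1.96 ± 0.26, adjusted p = 4.84e-07), at 2.28, 1.39, 1.05 and 1.86 CPM in neoAC CellC against 6.35, 5.92, 6.22 and 6.95 CPM in AdAC CellC, followed by Cdc6 (-1.24 ± 0.17). Pbk (0.47 ± 0.14), Kif11 (0.47 ± 0.15), Cenpf (0.46 ± 0.16) and Top2a (0.40 ± 0.12) were the 4 higher genes, and Birc5 (-0.64 ± 0.14), Kif23 (-0.55 ± 0.12) and Plk1 (-0.41 ± 0.14) the 3 lower mitosis genes. Both sets depended on the processing: Plk1 lost its call under 8 alternatives (-0.31 with an adjusted p of 0.0745 in the DESeq2 Wald test), and Ccnb1 (0.28 ± 0.14 as reported) was higher under 7 (0.39 with an adjusted p of 0.0252 in the same test). Gins1 had the highest value of the replication genes and did not pass (-0.18 ± 0.15). Leaving out single libraries gave 3 or 4 higher and 21 to 35 lower genes, the latter count being 35 without neoAC CellC replicate 1, which was highest of its group on both scores.

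The next question was how AGES, with BMP4 in place of EGF and FGF, differ from NSC. The addition of BMP4, the loss of both growth factors and a change of the coating of the dishes cannot be told apart here. All 50 genes were lower in AGES than in NSC, where 34.0% of all genes were lower and 31.7% higher. The median log2 fold change was -4.30 over replication genes, -8.07 over mitosis genes and -5.25 over the other 9, against 0.00 over all genes. Among mitosis genes Cdk1 fell least (-5.25 ± 0.15, adjusted p = 5.49e-20), followed by Cdc20 (-5.38 ± 0.22) and Tpx2 (-5.44 ± 0.17), and Mki67 fell most of the genes above the floor (-9.91 ± 0.23). Of the replication genes Orc6 fell least (-1.54 ± 0.09) and Rrm2 most (-7.12 ± 0.21). Depdc1b and Pbk were at the floor in AGES, with 1 and 9 counts over the 4 libraries, and NSC held 3994-fold more Depdc1b (716 to 157801) and 1415-fold more Pbk (745 to 3094, exact 95% intervals that cover counting error only). The 5 oligodendrocyte precursor markers (Pdgfra, Cspg4, Olig1, Olig2 and Sox10) went from 1800 to 2149 CPM in NSC to 262.7 to 359.1 CPM in AGES, and their part was not tested. Setting both genes to the floor of 3 counts per library left the mitosis median at -8.07.

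AGES were also compared with cultured primary astrocytes, the other in vitro source. The same AGES libraries enter each comparison, so their results are not independent. Against AdAC CellC all 50 genes were lower, with 45.2% of all genes lower and 31.0% higher, and the medians were -3.18 (replication) and -6.59 (mitosis, -6.45 with Depdc1b and Pbk at the floor), against -0.23 over all genes. Against neoAC CellC 48 of 50 were lower, 0 higher and 2 did not pass, with 40.5% of all genes lower and 34.1% higher, and the medians were -2.34 and -6.67 (-6.40 at the floor), against -0.07. The 2 that did not pass were Cdk2 (0.03 ± 0.12) and Orc6 (-0.19 ± 0.09, adjusted p = 0.0622), both mentioned above as the most retained genes of AGES. In both comparisons Rrm2 was the lowest replication gene (-6.38 ± 0.21 against AdAC CellC and -6.01 ± 0.20 against neoAC CellC) and Tpx2 the least changed mitosis gene (-3.85 ± 0.16 and -3.91 ± 0.16). Orc6 was the least changed replication gene against AdAC CellC (-0.67 ± 0.09). Pbk was 609-fold (321 to 1332) and 839-fold (442 to 1835) higher in AdAC CellC and neoAC CellC than in AGES, with exact 95% intervals of counting error. For Depdc1b the ratios were 806-fold (144 to 31879) and 922-fold (165 to 36462).

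NSC were compared with neoAC direct, the directly isolated group of higher score. All 50 genes were higher in NSC, where 37.5% of all genes were higher and 42.5% lower. The medians of the lists were close, 2.68 for replication and 2.88 for mitosis, against -0.11 over all genes. Aurka (3.45 ± 0.15) and Cdc6 (3.68 ± 0.19) led their lists, and Ccnb2 (1.20 ± 0.14) and Orc6 (1.47 ± 0.09) were lowest. Markers of oligodendrocyte precursors, a dividing glial cell type, summed to 1800 to 2149 CPM in NSC and 785.9 to 1126 CPM in neoAC direct, and their part was not tested.

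AGES and AdAC direct, the groups of lowest level, differed gene by gene. In AGES 14 genes were higher, 26 lower and 10 did not pass, against 35.6% of all genes higher and 44.8% lower. Of the 20 replication genes 7 were higher, 8 lower and 5 did not pass, shares close to those of all genes. Their median log2 fold change was 0.08, and it turned to -0.09 with at least 10 counts in every library, -0.06 with library size only and -0.01 without AGES replicate 3. Of the 21 mitosis genes 15 were lower and 3 higher, with a median of -1.34 against -0.17 over all genes. The 3 mitosis genes that went against their list were Cdk1 (3.09 ± 0.19, adjusted p = 5.69e-14), Cdc20 (0.77 ± 0.23) and Tpx2 (0.73 ± 0.16). Depdc1b was 252-fold higher in AdAC direct (44.8 to 9973) and Pbk 10.01-fold (5.06 to 22.6, exact 95% intervals of counting error), and Kif11 (-3.31 ± 0.19) was the lowest mitosis gene above the floor. At both ends of the replication list were Orc1 (1.47 ± 0.48) and Pole (-1.74 ± 0.16). Orc1 stood at 0.592 CPM or less in every library of both groups, and its libraries overlapped. The higher replication genes were Mcm2, Mcm3, Cdt1, Orc1, Orc6, Pola1 and Rrm1, and the lower ones were Mcm5, Mcm6, Mcm7, Cdc6, Gins1, Cdc45, Pole and Rrm2. Of the transcription factors, E2f1 (0.86 ± 0.13) and Foxm1 (0.55 ± 0.18) were higher in AGES, and E2f2 (-3.71 ± 0.38), Mybl2 (-3.28 ± 0.22) and E2f8 (-2.45 ± 0.43) lower. Pcna did not pass (0.04 ± 0.11, adjusted p = 0.762). Of the genes given by library, Aurkb (-0.84 ± 0.38) lost its call under 8 alternatives and Ccnb1 (-0.75 ± 0.30) under 4, while Top2a (-0.28 ± 0.15) was lower under 5, as in the DESeq2 Wald test (-0.32, adjusted p = 0.0497).

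**Figure D5:**
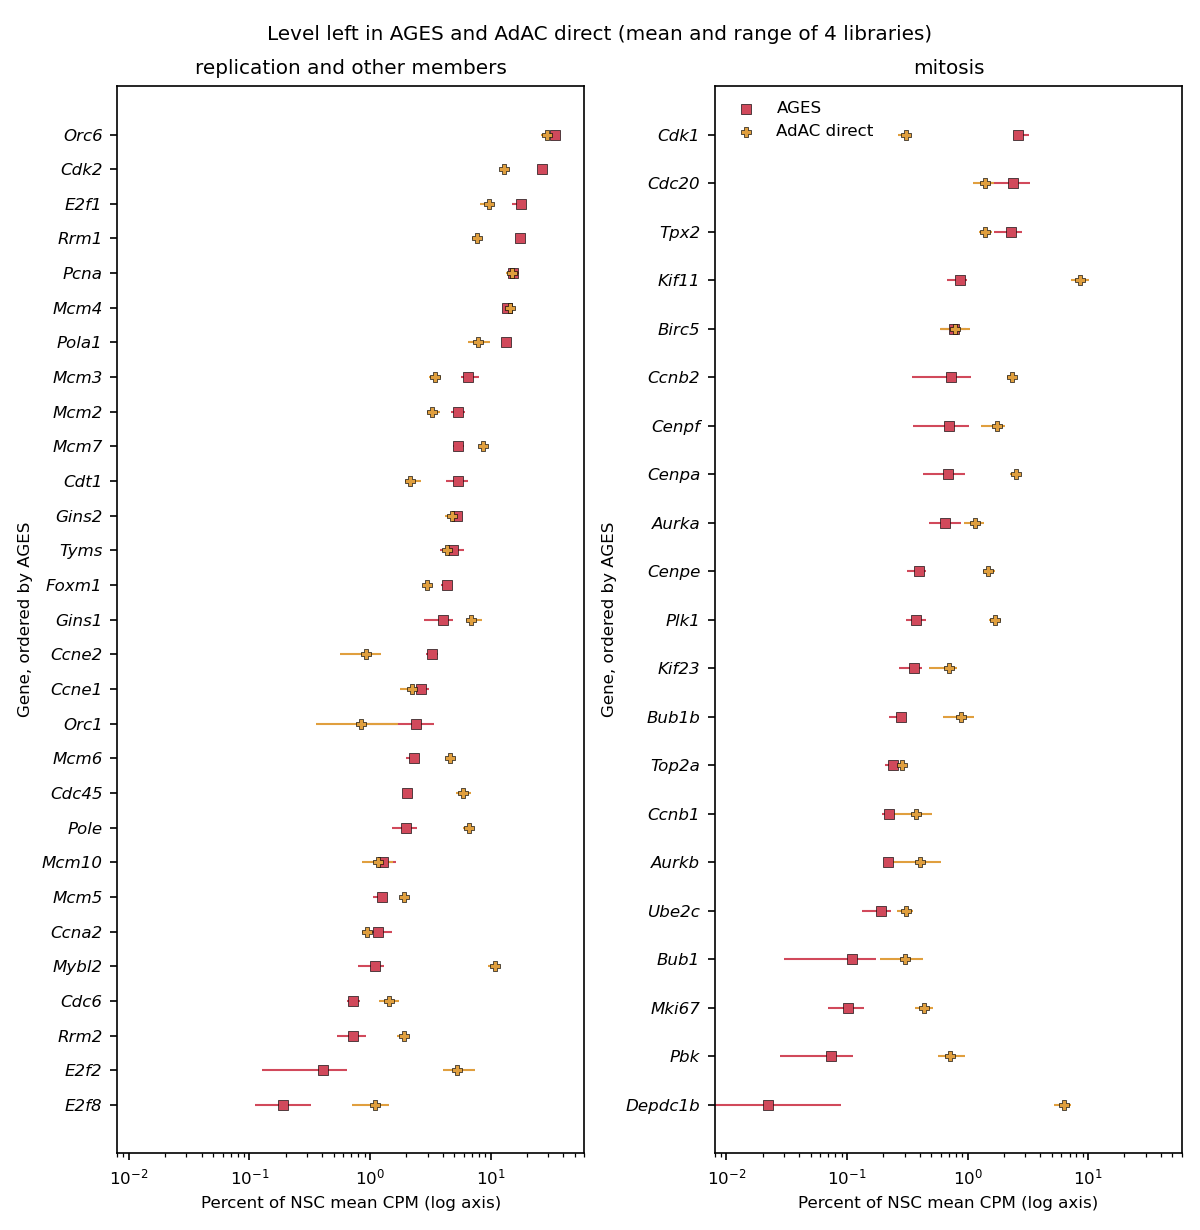
Level of each gene in AGES and AdAC direct as a percentage of its mean CPM in NSC (logarithmic horizontal axis), with a marker for the mean and a line for the range of 4 libraries, genes ordered by AGES and replication genes with the other 9 on the left. Replication genes reach 34.3% of NSC (Orc6 in AGES), no mitosis gene of AGES is above 2.63% (Cdk1), and Kif11, Depdc1b and Mybl2 stand to the right in AdAC direct. The line of Depdc1b in AGES starts at 0 and is cut by the axis.

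Relative to NSC, the replication genes kept a median of 5.06% in AGES and 4.67% in AdAC direct, and the mitosis genes 0.370% and 0.882%. In the other groups the medians were 23.5% and 31.8% in neoAC CellC, 15.6% and 13.6% in neoAC direct, and 37.4% and 35.1% in AdAC CellC, for replication and mitosis. Above 10% of NSC in AGES were Orc6, Cdk2, E2f1, Rrm1, Pcna, Mcm4 and Pola1.

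Other genes of the same pathways were counted in the same fit, against the shares of all genes given above for each comparison. Of 37 further replication genes, such as replication factor C, replication protein A and polymerase subunits, 35 were lower in AGES than in NSC, 0 higher and 2 (Rpa1 and Orc3) did not pass, with a median of -2.42. Of 50 further mitosis genes all were lower, with a median of -6.16. In AdAC CellC against AdAC direct 33 of 37 were higher, 0 lower and 4 did not pass (median 1.72), and 48 of 50 mitosis genes were higher and 2 lower (median 4.96). The 2 lower ones were Anln (-1.37) and Pttg1 (-1.30), which were also lower in neoAC direct than in AdAC direct (-4.43 and -1.05, together with Cit at -0.40). In neonatal cells culture gave 21 of 37 replication genes higher and 1 lower (Rfc1, -0.34), and 46 of 50 mitosis genes higher and 1 lower (Cdc25b, -0.83). Between cultures the neonatal cells had 30 of 37 replication genes lower than the cultured adult cells and 0 higher (median -0.47). Of the 50 mitosis genes 17 were lower and 8 higher (median -0.14), where 35.2% of all genes were lower and 28.5% higher.

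The E2F and DREAM components read and repress these promoters. Of 14 such genes (E2f3 to E2f7, the pocket proteins, Tfdp1, Tfdp2 and the Lin subunits of the complex), 10 were lower in AGES than in NSC and 4 higher (median -1.24). Of all genes, 34.0% were lower and 31.7% higher there. In AdAC CellC against AdAC direct 8 were higher, 4 lower and 2 did not pass (median 0.57), where 38.8% of all genes were higher and 39.2% lower. In neoAC CellC against neoAC direct 3 were higher, 5 lower and 6 did not pass, where 34.4% of all genes were higher and 31.3% lower. Across AGES and AdAC direct 5 were higher in AGES, 6 lower and 3 did not pass, close to the 35.6% and 44.8% of all genes.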

How the data were processed

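RNA of 24 samples in 6 groups of 4, assigned from the sample labels, was sequenced as stranded polyadenylated libraries. Per the labels and the study's methods, the authors demultiplexed with bcl2fastq 2.20, aligned to GRCm38 with STAR 2.7.3a and counted with featureCounts, and the deposited values are raw read counts per Ensembl gene. Gencode vM21 supplied symbols for 49412 of 49671 identifiers. Totals were 27904126 to 37997368 counts, and precision beyond counting error rests on 4 replicates.

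Genes passing filterByExpr (19691) were scaled by TMM and fitted over all 6 groups with edgeR 4.0.16 (quasi-likelihood test, R 4.3.3, limma 3.58.1), with Benjamini-Hochberg adjustment over all genes and a threshold of 0.05. CPM are read counts scaled to a common total with TMM factors. Scores are means of log2 CPM with a prior count of 2. On simulated data 195 of 200 changed genes were recovered for AdAC CellC against AdAC direct. Members and lists were chosen with earlier results of these data known. Library values are given for 18 members, and each comparison names the highest and lowest member of the replication and mitosis lists and those that go against their list. Other genes were named after their values were seen. Replicate numbers did not pair samples (r of same-numbered samples -0.0953 to 0.106). Alternatives were DESeq2 1.42.0, other scaling, filters, fits and left-out replicates. Promoter windows came from RefSeq. The list of oligodendrocyte markers was shortened by 1 gene, which is not reported here. Per the study's methods, replicates were separate isolations for primary cells and independent cultures of different passages for NSC and AGES.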

Additional observations from a re-analysis of the deposited data

Results flagged for a closer look

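In 4 of 126 group values, 1 library stood far from the other 3 of its group (gap to the nearest library over the range of the group, Dixon's criterion at 95%), and chance alone flags about 1 in 20 such groups. Cdk1 was highest in NSC replicate 3, at 282 CPM. Aurkb was lowest in NSC replicate 4, at 127 CPM. Cdk1 was highest in AGES replicate 1, at 8.15 CPM. Cdc6 was lowest in neoAC direct replicate 2, at 4.54 CPM.

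The effect of culture differed between adult and neonatal astrocytes for all 18 genes given by library, as an interaction in edgeR's quasi-likelihood test. These values repeat the interaction reported above and are not a further test. Mybl2 lost its call under a pair of alternatives given at the end. As log2 differences, adult minus neonatal, the licensing genes gave 3.04 (Mcm2), 3.24 (Mcm5), 3.68 (Cdc6) and 3.41 (Cdt1), with 1.30 for Pcna and 3.84 for Rrm2. The mitosis genes gave 4.84 (Ccnb1), 5.59 (Cdk1), 5.36 (Aurkb), 2.91 (Plk1), 5.22 (Mki67) and 4.63 (Top2a). The cyclins and transcription factors gave 3.61 (Ccne1), 4.34 (Ccna2), 3.55 (Foxm1), 2.28 (E2f1), 4.58 (E2f8) and 0.65 (Mybl2). The adjusted p was 0.0161 for Mybl2 and 9.45e-08 or smaller for the others. Mybl2 lost its call with library size only (0.50, adjusted p = 0.0563) and without neoAC direct replicate 3 (0.51, adjusted p = 0.0549).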

How the results depend on the processing

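All 157 alternative counts of members past the threshold stayed within 1.5 times the value reported. Of the alternatives for single named genes, 2712 kept direction and side of the threshold, 68 lost and 19 gained significance, and 7 reversed. The reversals were Mybl2 between neoAC direct and AdAC direct (0.035 without neoAC direct replicate 4, and -0.23 to 0.035 over the left-out replicates) and Pcna between AGES and AdAC direct (-0.0049 with DESeq2 size factors and in its Wald test, -0.11 with library size only, -0.091 with at least 10 counts in every library, -0.014 without AGES replicate 3 or AdAC direct replicate 2, and -0.014 to 0.11 over the left-out replicates), neither past the threshold as reported. The strict minimum of 10 counts left 10 members untested. With a replicate block the counts were 50, 40, 50, 50, 48, 35, 49, 50 and 37 in the order AdAC CellC and neoAC CellC against direct, AGES against NSC, AdAC CellC and neoAC CellC, neoAC CellC against AdAC CellC, neoAC direct against AdAC direct, NSC against neoAC direct and AGES against AdAC direct, and 49 for the interaction.

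Scores moved by more than the replicate SD as follows. With a prior count of 0.5, AGES gave -4.56 (replication), -7.98 (mitosis) and 3.42 (difference). Another alternative took the median log2 CPM over the list in each library, which can fall on different genes in different groups. With it, replication gave -4.78 in AGES, -2.33 in neoAC direct and -4.15 in AdAC direct, and mitosis -7.99 in AGES. The difference was then -0.29 in neoAC CellC, 0.55 in neoAC direct, 0.14 in AdAC CellC and 2.51 in AdAC direct. With library size only, replication gave -4.61 in AGES, -1.27 in AdAC CellC and -4.37 in AdAC direct, and mitosis -1.34 in AdAC CellC. Without Mki67 and Top2a, mitosis gave -7.61 in AGES and -6.47 in AdAC direct, and the difference 3.08 in AGES, 2.04 in AdAC direct and -0.0048 in AdAC CellC, a change of sign. Leaving out single replicates gave -4.61 to -4.47 for replication in AGES and -4.51 to -4.38 in AdAC direct. The cause was not tested. The spread of Mcm2 to Mcm7 without division by length, an alternative chosen after seeing the data, moved in 5 groups.

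Genes at a few counts in AGES limit the size of their folds, and shared or opposite-strand sequence limits the levels of Gins2, Mybl2, Ccnb1, Ccne2, Ccna2, Ube2c, E2f8 and Pcna, among others.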
